A study of Mus musculus with 4 samples.

Results

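The Platr genes (pluripotency-associated transcripts) and a set of well-known long noncoding RNAs (lncRNAs) were followed as mouse embryonic stem cells (ESCs) left the undifferentiated state. The members were all gene symbols made of Platr and a number, plus 16 lncRNAs given by name, of which 15 had a row in the count files. Epb41l4aos was not analysed here. This gave 27 members, 12 Platr genes and 15 other lncRNAs, of 24421 gene symbols. The set was chosen by its values in these libraries, in the comparison of Day4 with Undiff, so that the comparison is given for its members as a description and is no evidence of a trend in them.

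The data were 4 Illumina TruSeq RNA libraries of R1, an established line of mouse ESCs, with 2 biological replicates of each state, grown and treated separately according to the methods of the study. Undiff was R1 cells kept with leukaemia inhibitory factor (LIF) according to the methods, and embryoid bodies, which are aggregates of ESCs, according to the sample labels. Day4 was embryoid bodies grown without LIF for 4 days and then with retinoic acid (RA) for 4 days, with a dose of 2 µM in the series text and 2 mM in the sample labels. By the methods, the states therefore differed in LIF, in aggregation and in time in culture as well as in RA, and the effects of these cannot be told apart. The libraries held between 32099074 and 47730944 fragments counted on genes. All 10 markers of pluripotent cells were lower in Day4, and their summed normalized counts went from 192500 and 193600 in the Undiff libraries to 871.2 and 654.9 in the Day4 libraries. The 7 endoderm markers were all higher, as were 6 of 8 fibroblast markers, whose sum was 2817 and 2557 in Undiff against 24180 and 22360 in Day4. Of 10 neural markers, 4 were higher and 4 were lower, of 7 for mesoderm and muscle 4 and 1, and of 6 for endothelium and blood 4 and 1. In bulk RNA, fewer cells of a type and less RNA per cell cannot be told apart, and the part of these cell types in the values of the lncRNAs was not tested.

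LncRNAs are transcripts without a long open reading frame that act as RNA, or whose transcription acts on the genes beside them. The Platr genes were named for expression that accompanies the pluripotent state of ESCs, and what most of them do is not well known. Among the other members, Malat1 and Neat1 are nuclear RNAs of speckles and paraspeckles, Norad and Cyrano act in the cytoplasm on RNA-binding proteins and a microRNA, and Hotairm1, Hottip and Hotair are transcribed from the Hox clusters that RA is known to open. Sox2ot, Otx2os1 and Pantr1 lie beside genes of transcription factors.

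Sequences are shown first for the Platr genes with the highest counts in Undiff. The sites by which Norad and Cyrano are known to bind their partners follow. The promoter windows run from 250 bases before the start of the gene to 50 bases after it, on the strand of the gene, from RefSeq on GRCm38.p6. RefSeq promoters were found for 16 members, among them 10 Platr genes, and not for Platr17, which ranked between Platr14 and Platr21. The window of Platr10 is chr3:75655682-75655981 on the minus strand, with the letters CACGTG in capitals. The window of Platr14 is chr2:104559209-104559508 on the plus strand, inside the span that GENCODE vM21 gives the gene, and its capitals are ACAATG read on the other strand. Platr21 had a pair of windows, and the outer one is chrX:139357689-139357988 on the minus strand, with the octamer ATGCAAAT, read on the other strand, in capitals.
Platr10: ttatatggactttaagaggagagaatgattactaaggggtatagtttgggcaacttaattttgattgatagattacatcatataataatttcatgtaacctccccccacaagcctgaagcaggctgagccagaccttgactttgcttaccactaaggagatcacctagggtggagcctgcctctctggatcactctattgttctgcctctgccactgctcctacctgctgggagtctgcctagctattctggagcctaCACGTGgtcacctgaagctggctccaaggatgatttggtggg
Platr14: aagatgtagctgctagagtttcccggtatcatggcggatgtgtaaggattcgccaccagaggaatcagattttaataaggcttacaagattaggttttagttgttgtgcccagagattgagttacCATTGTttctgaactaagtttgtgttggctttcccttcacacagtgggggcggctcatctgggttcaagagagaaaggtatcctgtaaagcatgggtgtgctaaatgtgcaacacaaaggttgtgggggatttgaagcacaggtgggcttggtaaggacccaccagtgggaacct
Platr21: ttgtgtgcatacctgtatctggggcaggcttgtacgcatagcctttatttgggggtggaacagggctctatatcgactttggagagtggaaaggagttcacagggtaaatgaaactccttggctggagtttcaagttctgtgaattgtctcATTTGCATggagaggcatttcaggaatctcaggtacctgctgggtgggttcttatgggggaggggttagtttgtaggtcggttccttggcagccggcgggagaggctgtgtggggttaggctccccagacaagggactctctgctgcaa

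The sets of letters below were searched on both strands in all 32851 RefSeq promoters of this length. The octamer, which OCT4 and its relatives bind, was in 1.74% of all promoters and, among the Platr genes, in Platr21. ACAATG, the core of Sox sites, was in 12.6% of promoters and in those of Platr14 and Platr8. CACGTG, an E-box, was in 7.15% and in that of Platr10. AAGGTCA, the Esrrb element, was in 4.72%, and AGGTCA, which overlaps it, in 16.3%, and both were in the promoter of Platr7. TATAAA was in 13.6% and in that of Platr5, and CCAAT in 37.4% and in those of Platr20, Platr5, Platr7, Platr8 and Platr9. None of these sets was in the windows of all 10 Platr genes. The windows of the Platr genes held between 0 and 9 CpG dinucleotides, against a median of 7 over all promoters. Those of the other members with a promoter, Tug1, Miat, Dancr, Cyrano, Malat1 and Hottip, held 37, 25, 18, 15, 10 and 6.

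Norad (2900097C17Rik in the files, chr2:156388065-156392979, minus strand, a lincRNA) is known for repeated elements that bind the Pumilio proteins, which shorten the life of mRNAs. Its transcript of 4915 nt held 11 copies of UGUANAUA, between positions 651 and 3526 from its first base. Of the 4142 GENCODE transcripts of 4500 to 5500 nt, 42.3% held a copy, the median was 0 and the maximum 15, and 3 transcripts held 11 or more. The first site of each form is shown with its flanks, the element in capitals and T for U. They lie at chr2:156392316-156392335, chr2:156391820-156391839 and chr2:156391631-156391650.
Norad site 1: gtcctgTGTATATAatatga
Norad site 2: acatgcTGTAAATAcctttt
Norad site 3: tttcttTGTACATAgtgtat

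Cyrano (1700020I14Rik in the files, Oip5os1 in RefSeq, chr2:119594297-119607502, plus strand) is known to pair at length with the microRNA miR-7 and to lead to its decay. The mature miR-7 sequences from RefSeq are shown with the seed, bases 2 to 8, in capitals, above the site in the 8300-nt Cyrano transcript at chr2:119602137-119602161, whose capitals are the bases that pair with miR-7a-5p.
miR-7a-5p: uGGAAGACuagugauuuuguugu
miR-7b-5p: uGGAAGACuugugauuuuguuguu
Cyrano site: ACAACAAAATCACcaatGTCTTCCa
Both microRNAs share the seed GGAAGAC. The site pairs with the 7 bases of the seed and with a run of 13 bases, from base 11 to base 23 of miR-7a-5p. Another match to the seed in the same transcript, at chr2:119599964-119599971, had no such run.

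Normalized counts below are fragments per gene scaled to the same effective library size in all 4 libraries. A gene was called differentially expressed (DEG) at an adjusted p-value up to 0.05 in edgeR's quasi-likelihood test, with a log2 fold change of 1 or more in either direction and 5 or more normalized counts on average. All 27 members had a count and entered the test, and 23 of them, 11 Platr genes and 12 others, had a mean of at least 5. Of the 12 Platr genes, 11 were DEGs lower in Day4 and 0 were higher, and of the 15 other lncRNAs, 6 were lower and 4 were higher. Over all 19891 genes tested, 42.8% were DEGs, with 22.2% higher and 20.6% lower in Day4. The libraries of the states did not overlap for any of the 27 members, and neither did they for 85.4% of all genes tested. Over the members with a mean of at least 5, the median log2 fold change was -6.50 for the Platr genes, or -5.85 with genes at the floor set to their lower bound. It was -0.45 for the other lncRNAs and 0.03 for all genes. Among the 1256 other tested genes of noncoding types in GENCODE, 219 were higher and 191 lower, with a median of 0.18 over the 625 with a mean of at least 5.

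The sum over the Platr genes was 7910 and 7855 normalized counts in the Undiff libraries and 67.9 and 74.47 in the Day4 libraries. Platr10 (chr3:75647446-75655731, minus strand, a lincRNA) made up the largest share, with 3885 and 3746 normalized counts in Undiff and 11.49 and 10.75 in Day4. Its log2 fold change was -8.41 ± 0.11 (SE, n = 2 libraries per state, as for all values that follow), and 0.395% of the 16472 genes with a mean of at least 5 had a lower one. Platr14 (chr2:104559163-104571429, plus strand) had 1681 and 1638 in Undiff and 19.85 and 19.19 in Day4, the highest Day4 level of the Platr genes, at a log2 fold change of -6.40 ± 0.11. Within each state the replicates of these 2 genes differed by far less than the states did.

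Platr17 (chr17:33905135-33906675, plus strand) had 725.3 and 901 normalized counts in Undiff and 1.04 and 5.37 in Day4, which put its log2 fold change at -7.79 ± 0.26. Without Day4 replicate 2 this was -9.45, since the remaining Day4 library held a single fragment. Among the 27 members, Platr17 alone is listed as protein-coding in GENCODE, and RefSeq names it Smim40, as a small membrane protein. Platr21 (chrX:139240226-139357738, minus strand) had 364.7 and 357.8 in Undiff and 11.49 and 6.91 in Day4, at -5.33 ± 0.20. Platr4 (chr3:41484024-41493192, minus strand) was close to it in Undiff, with 340.8 and 336.2, and had 3.13 and 7.68 in Day4, at -5.85 ± 0.23, or -6.72 without Day4 replicate 2. The Undiff levels of Platr21 and Platr4 were thus each tightly repeated, while their Day4 levels rested on few fragments.

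The remaining Platr genes had Undiff means between 97.75 and 199.6 normalized counts, apart from Platr9. Platr20 (chr11:51189833-51220418, minus strand) had 182.4 and 177.1 in Undiff and 8.36 and 14.59 in Day4, at -3.90 ± 0.23. Platr22 (chr1:136696211-136726142, plus strand) had 130.3 and 105.3 in Undiff and 11.49 and 6.14 in Day4, at -3.80 ± 0.30. These 2 genes had the smallest fold changes of the Platr DEGs, and were at Day4 levels similar to those of Platr10, which was far higher in Undiff.

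In 4 of the Platr DEGs the Day4 libraries held no more than 3 fragments each. Platr26 (chr2:71719417-71730966, plus strand) had 158.4 and 165.1 normalized counts in Undiff and 0 in both Day4 libraries, so that it was at least 59.5-fold lower, taking 3 counts per library as the floor. Platr7 (chr10:84547417-84553338, minus strand) had 205.3 and 193.8 in Undiff, and 0 and 0.77 in Day4. Its ratio of Undiff to Day4 was 452, with an exact 95% interval of 80.6 to 17900 that covers counting error only. Platr5 (chr1:88754890-88755736, plus strand) had 136.5 and 125.6 against 1.04 and 1.54, a ratio of 99.0 (33.5 to 484). Platr8 (chr2:109902396-109913319, minus strand) had 93.79 and 101.7 against 0 and 1.54, a ratio of 110 (30.0 to 917). The Day4 side of these 3 ratios rested on 1, 3 and 2 fragments over both libraries. The fitted log2 fold changes of Platr7 and Platr8, which are no bounds, were -8.47 and -6.60. They were -10.53 and -9.50 without Day4 replicate 2, and -7.81 and -5.88 without Day4 replicate 1.

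Platr9 (chr4:34906124-34911481, minus strand) was the Platr gene that was not a DEG, with raw counts of 7 and 6 in Undiff and 0 in both Day4 libraries. It was at least 2.66-fold lower, and its mean of 3.62 lay under the minimum. Its exons overlap those of Cga on the opposite strand. Cga, the common subunit of the glycoprotein hormones, was a DEG higher in Day4, at means of 5.31 and 128.

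**Figure D1:**
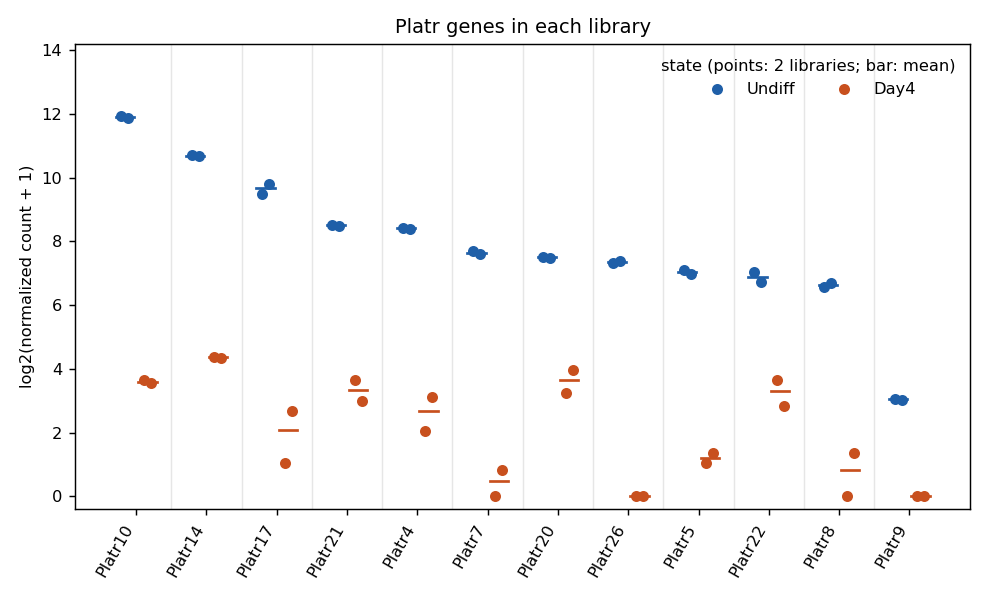
Normalized counts of the 12 Platr genes, as log2(normalized count + 1), in the 2 Undiff and 2 Day4 libraries, with points for libraries and bars for the mean of a state, ordered by the Undiff mean. For every gene both Undiff points lie above both Day4 points, and Platr26 and Platr9 are at 0 in both Day4 libraries.

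The nuclear RNAs Malat1 and Neat1 lie beside each other on chromosome 19, and both were lower in Day4, by very different amounts. Malat1 (chr19:5795690-5802672, minus strand), an abundant RNA of nuclear speckles, had 10290 and 9798 normalized counts in Undiff and 3621 and 4323 in Day4, a log2 fold change of -1.34 ± 0.07. Neat1 (chr19:5824708-5845478, minus strand), the RNA on which paraspeckles are built, had 4789 and 5332 in Undiff and 213.1 and 203.5 in Day4, at -4.61 ± 0.08. Counts were per gene, so that the transcripts of Neat1 were not told apart, and paraspeckles themselves were not measured. The Day4 libraries also held fewer fragments assigned to no gene, 7.5% and 7.74% against 12.1% and 13.2% in Undiff, and the part of this in the values of nuclear RNAs was not tested. None of the 10 genes of paraspeckle proteins was a DEG. Sfpq and Nono, which bind Neat1, had log2 fold changes of -0.27 ± 0.05 and 0.55 ± 0.04. None of the 7 genes of speckle proteins was a DEG either, with a median log2 fold change of -0.51.

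Norad and Cyrano stood apart from the nuclear RNAs in direction. Norad had 1670 and 1776 normalized counts in Undiff and 5597 and 5238 in Day4, a log2 fold change of 1.65 ± 0.05. Pum2, a Pumilio protein that such elements bind, had a log2 fold change of -0.05 ± 0.04 and was not a DEG. Rbmx, an RNA-binding protein also known as a partner of Norad, was a DEG higher in Day4, with 586.7 and 537.2 in Undiff and 1653 and 1624 in Day4. In Cyrano the counts were 1271 and 1162 in Undiff and 1593 and 1685 in Day4, at 0.43 ± 0.06, which is under the minimum fold for a DEG. Mir7-1, the gene of a miR-7 precursor, had 44.81 and 49.06 in Undiff and 14.62 and 18.43 in Day4 and was a DEG, although these libraries of long RNA count no mature microRNA. Zswim8, the ubiquitin ligase adaptor through which such pairing is known to lead to decay of a microRNA, had 1375 and 1287 in Undiff and 6707 and 6926 in Day4, at 2.36 ± 0.05.

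Tug1, Dancr and Pvt1 are expressed in many tissues, and Miat is given beside them. Tug1 (chr11:3639785-3649673, minus strand) had 6076 and 6808 normalized counts in Undiff and 11580 and 11250 in Day4, at 0.83 ± 0.05, under the minimum fold for a DEG. Pvt1 (chr15:62037986-62378096, plus strand), the neighbour of Myc, had 534.6 and 551.6 in Undiff and 66.85 and 79.08 in Day4, at -2.88 ± 0.12. Myc, a growth-promoting transcription factor, was also lower, at -1.49 ± 0.08. Dancr (chr5:74093060-74095406, plus strand), known to hold back differentiation in several cell types, had 458.5 and 520.5 in Undiff and 100.3 and 104.4 in Day4, at -2.25 ± 0.12. Its exons contain the small nucleolar RNA Snora26, which is counted as a gene of its own. Fragments that fall in both are ambiguous, and ambiguous fragments were left out. Miat (chr5:112213228-112229395, minus strand) had 313.7 and 307.5 in Undiff and 88.79 and 53.74 in Day4, at -2.17 ± 0.17, with the widest relative spread of Day4 replicates among these 4 genes.

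The lncRNAs of the Hox clusters differed widely in level. Hotairm1 (chr6:52156902-52162119, plus strand), which lies beside Hoxa2 and is known to respond to RA, had 11.46 and 4.79 normalized counts in Undiff and 543.2 and 488.3 in Day4. Its log2 fold change of 5.92 ± 0.22 was 6.71 without Undiff replicate 1. Hoxa2 had 2.08 and 0 in Undiff and 1329 and 1453 in Day4. Hottip, beside Hoxa13 at the other end of the cluster, had raw counts of 0 and 0 in Undiff and 2 and 2 in Day4, and Hoxa13 had 41.78 and 36.08 normalized counts in Day4 and 0 in Undiff. Hotair, of the HoxC cluster, had raw counts of 0 and 0 in Undiff and 2 and 1 in Day4. Hottip and Hotair were at or under 3 counts in all libraries, so that no fold is given for them. Hotairm1 was thus the member of this group with a level well above the floor.

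The lncRNAs beside genes of transcription factors moved in both directions. Sox2ot (chr3:34104270-34682619, plus strand), which contains the Sox2 gene in its span, had 56.27 and 64.61 normalized counts in Undiff and 3.13 and 3.07 in Day4, at -4.23 ± 0.40. Sox2, a core pluripotency factor, had 12320 and 13740 in Undiff and 132.7 and 58.35 in Day4, and counts of Sox2ot were far under those of Sox2 in every library. Otx2os1, which overlaps Otx2 on the opposite strand, had raw counts of 4 and 4 in Undiff and 0 and 0 in Day4, at least 1.65-fold lower and under the minimum mean. Otx2, a factor of the early epiblast and forebrain, had 5616 and 4237 normalized counts in Undiff and 0 and 0.77 in Day4. Pantr1 (chr1:42590782-42694842, minus strand) had 0 in both Undiff libraries and 13.58 and 8.44 in Day4, at least 3.28-fold higher. Its neighbour Pou3f3, a factor of neural cells, had 1.04 and 10.77 in Undiff and 50.14 and 39.16 in Day4. Rmst (chr10:92071037-92165170, minus strand), known to act with SOX2 in neurogenesis, had 0 in both Undiff libraries and 21.94 and 30.71 in Day4, at least 7.84-fold higher. Pantr1 was no longer a DEG without either of the Day4 replicates.

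**Figure D2:**
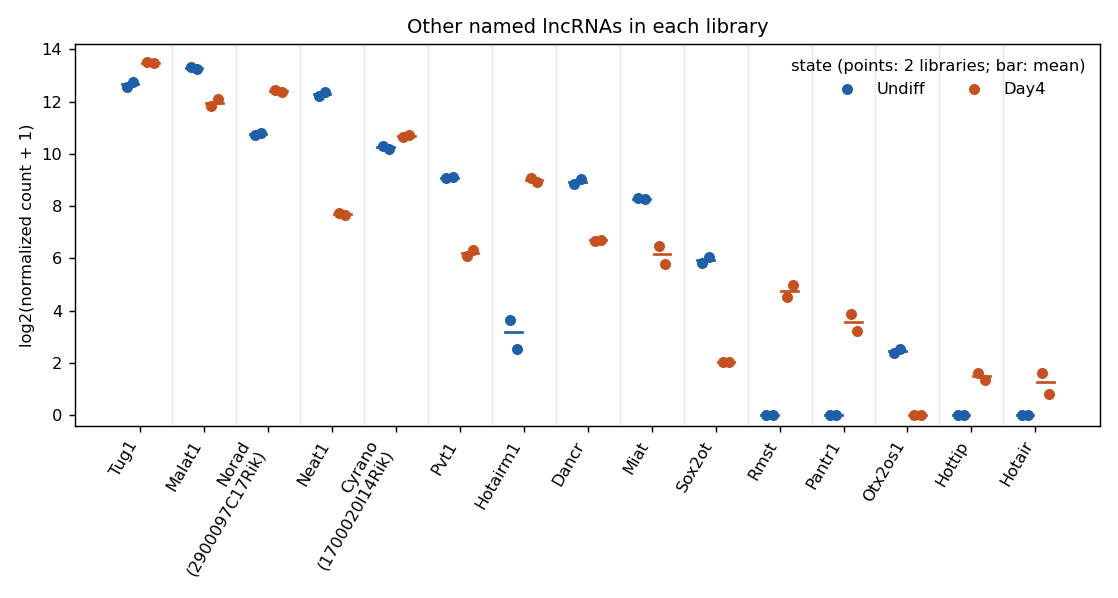
Normalized counts of the 15 other lncRNAs, as log2(normalized count + 1), in the 2 Undiff and 2 Day4 libraries, with points for libraries and bars for the mean of a state, ordered by the higher of the state means. Neat1 shows the widest gap among the abundant RNAs, Hotairm1 the widest gap in the other direction, and Hottip and Hotair lie near 0 in both states.

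The summed normalized counts of the 15 other lncRNAs were 25470 and 26330 in Undiff and 23450 and 23470 in Day4, with Malat1 and Neat1 lower and Tug1 and Norad higher in Day4. Levels were compared between genes per kb of exon in GENCODE, which may differ from the annotation used for counting. On this scale Platr10 was the highest member in Undiff, at a mean of 2187 normalized counts per kb, followed by Malat1 at 1438, Platr14 at 1051 and Platr17 at 1008. In Day4 the order was Tug1 at 1173, Norad at 1102, Malat1 at 568.7 and Hotairm1 at 503.2 normalized counts per kb, while Platr10 was at 6.37. With 2 libraries per state, the order of close neighbours such as Platr14 and Platr17, or Tug1 and Norad, was not tested.

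**Figure D3:**
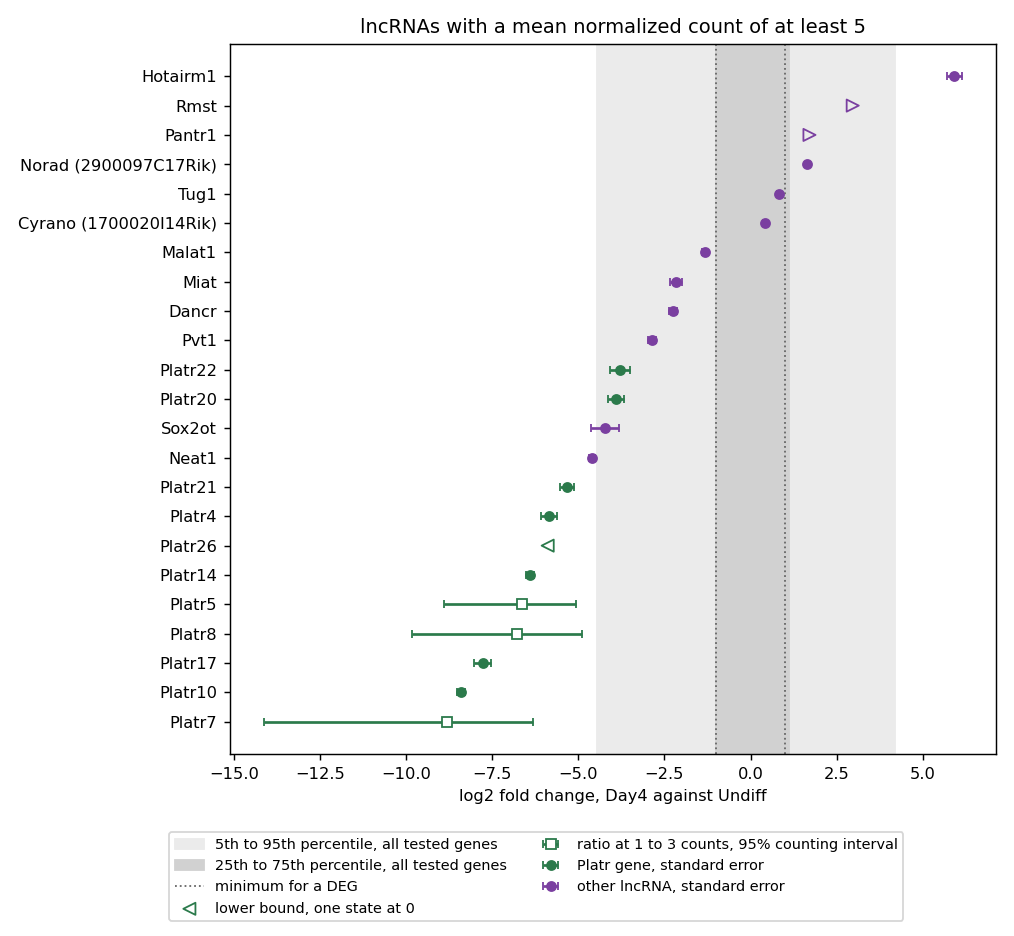
Log2 fold change of Day4 against Undiff for the 23 lncRNAs with 5 or more normalized counts on average, with standard errors, open triangles for lower bounds where a state is at 0, and open squares with 95% counting intervals for genes at 1 to 3 counts in Day4. Grey bands give the middle of all 16472 genes, and all Platr genes except Platr20 and Platr22 lie below the 5th percentile of -4.45.

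The nearest protein-coding gene was taken for members that were DEGs, other than Malat1 and Hotairm1, to set the lncRNAs beside their surroundings. Of the genes nearest to the 11 Platr DEGs, 5 were lower in Day4, 1 was higher and 5 were not DEGs. Among those lower were Trap1a, which overlaps the span of Platr21 on the opposite strand and was at -6.55 ± 0.11, Jade1 beside Platr4 at -3.21 ± 0.06, and Itga6, an integrin of the ESC surface, 14.7 kb from Platr26, at -2.98 ± 0.06. Serpini1, 3.95 kb from Platr10, was at -2.79 ± 0.09, and Zfp281, a zinc finger factor of ESCs beside Platr22, at -1.28 ± 0.06. Ckap4, 13.4 kb from Platr7, was higher, at 1.14 ± 0.05. Cstf3, Daxx and Lin7c, beside Platr14, Platr17 and Platr8, were at -0.86 ± 0.06, -0.70 ± 0.05 and -0.24 ± 0.05 and were not DEGs. Arl4c beside Platr5, at 0.57 ± 0.07, was not a DEG either. Nor was BC049762 beside Platr20, at 0.03 ± 0.73 and means of 3.88 in Undiff and 4.15 in Day4. Over all 17107 protein-coding genes tested, 21.0% were lower and 23.4% were higher, and whether the genes beside the Platr genes differ from this was not tested.

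For the other members that were lower, the nearest genes Myc, Sox2 and Cryba4 were lower, Usp46 beside Dancr was higher, and Frmd8 beside Neat1 was not a DEG. Cryba4 rested on few fragments, at means of 9.78 in Undiff and 0.52 in Day4. For those that were higher, Pou3f3 and Cnbd2, beside Pantr1 and Norad, were higher, and Nedd1 beside Rmst was not a DEG, at a distance of 520 kb.

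**Figure D4:**
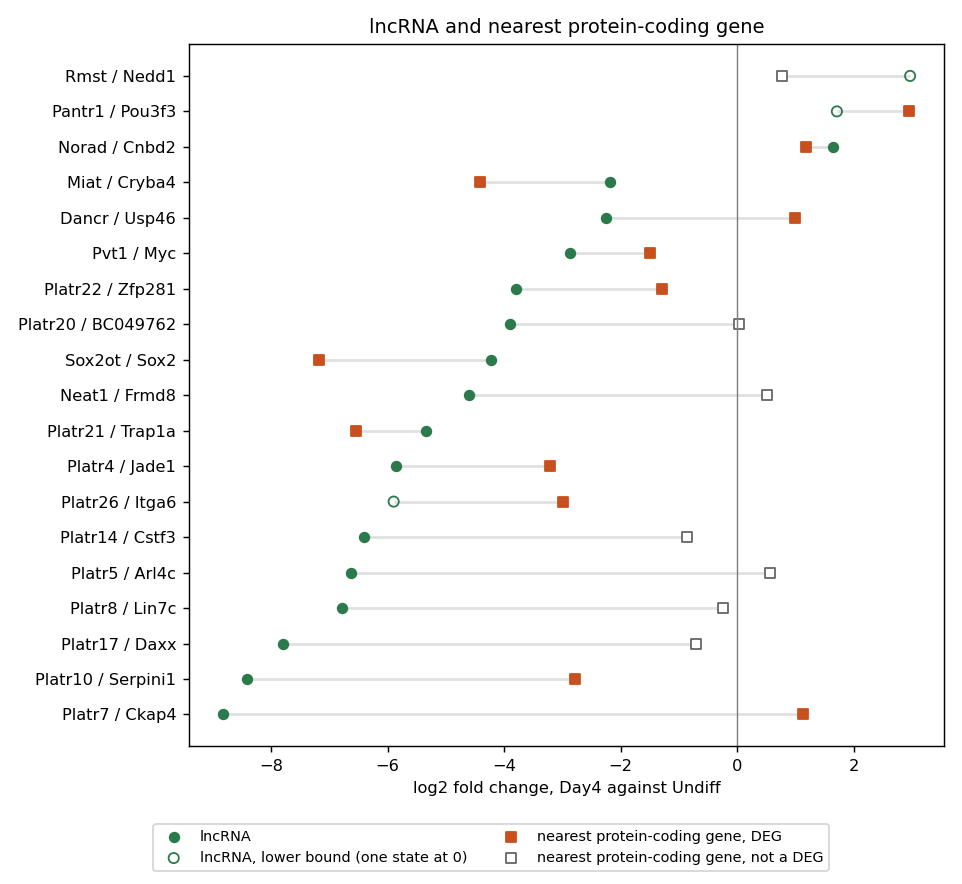
Log2 fold change of Day4 against Undiff for lncRNAs that were DEGs, other than Malat1 and Hotairm1 (circles, open where the value is a lower bound) and for its nearest protein-coding gene (squares, open where that gene was not a DEG). The nearest genes of Platr7 and Dancr lie on the other side of 0 as DEGs. The genes nearest to Platr21, Sox2ot and Miat fell by more than these lncRNAs, that of Miat on few fragments.

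Further lncRNAs were taken from a list of 53 symbols, such as imprinted, Hox and host-gene lncRNAs. Matched by symbol, 38 were in the files and 35 had a count. Lncenc1 of the list was in the files only under the symbol Lincenc1, so it was not among the 38. It was lower in Day4, at a log2 fold change of -7.43, and is described with the other observations. Of the 35, 19 were DEGs higher in Day4 (54.3%), 12 were lower (34.3%) and 4 were not DEGs. Over all genes tested, 22.2% were higher and 20.6% lower. The median log2 fold change of the 35 was 1.55. The 3 with the highest fitted values, Hoxb5os, Mir99ahg and Emx2os, had 0 in both Undiff libraries. Hoxb5os was at least 36.5-fold higher, Mir99ahg at least 32.8-fold and Emx2os at least 28.4-fold. This order is one of fitted values against 0 counts and not of measured size. Other lncRNAs of the list, named after their values were seen, had larger measured folds, such as Wt1os, which was 88.3-fold higher with 13.55 and 7.18 normalized counts in Undiff and 909.8 and 921.3 in Day4, and Foxd2os, which was 67.2-fold higher. The lowest fitted values of the 35 were those of Mir124a-1hg, the host of a neuronal microRNA, Tsix and Xist. Mir124a-1hg had 174 and 213 normalized counts in Undiff and 0 in Day4, at least 71.2-fold lower. Tsix was at least 29.9-fold lower. Xist, which silences the X chromosome and is paired with Tsix, had 114.6 and 137.6 in Undiff and 7.31 and 4.61 in Day4. Exon overlaps between strands were not examined for this list, so that the counts of Xist and Tsix are less certain. Meg3, Rian, Ftx and Kcnq1ot1 were the 4 that were not DEGs, with log2 fold changes of -0.89 ± 0.05, -0.84 ± 0.04, -0.57 ± 0.09 and 0.26 ± 0.12.

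Of the genes of proteins and RNAs that are known partners of lncRNAs, 30 had a count. Of these 30, 3 were DEGs higher in Day4 and 3 were lower, against 22.2% and 20.6% of all genes tested. Zswim8, Rbmx and Rcor1 were the 3 that were higher. Rcor1, a corepressor of neuronal genes, had 1005 and 1068 normalized counts in Undiff and 2645 and 2663 in Day4. The lower ones were Mir7-1 and the Polycomb subunits Eed and Suz12, which had log2 fold changes of -1.68 ± 0.07 and -1.36 ± 0.04.

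The exons of 20 members overlapped no other counted gene. Tug1 overlaps Morc2a, Pvt1 overlaps H2afy3, Otx2os1 overlaps Otx2 and Platr9 overlaps Cga, each on the opposite strand. Dancr and Sox2ot contain the small RNA genes Snora26 and Mir1897 on the same strand. The methods say that strandedness was considered in counting on genes and name the Direct RNA samples of the study as strand-specific, without giving the option used for TruSeq, so that the counts of these members, and of Hotairm1, are less certain.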

How the data were processed

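Reads were trimmed (cutadapt), mapped to mm10 (STAR 2.4.2a) and counted as unique fragments per gene symbol (htseq-count) by the authors. The deposited values are these raw counts, without normalization. Fragments assigned to no gene were 7.5% to 13.2% and ambiguous ones 1.84% to 1.91%, and both were left out. Groups came from the sample titles. The labels name a ribosomal depletion kit beside the TruSeq kit of the methods.

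Counts of the 19891 genes detected in at least 1 library were scaled by TMM and compared in edgeR 4.0.16 under R 4.3.3 (glmQLFit and glmQLFTest, Benjamini-Hochberg adjustment over all of them), comparing Day4 with Undiff with no block. The thresholds for a DEG, which are those of the study, were 0.05 for the adjusted p-value, 1 for the log2 fold change in either direction and 5 for the mean normalized count. The standard error is the absolute log2 fold change divided by the square root of F. The package default, the older quasi-likelihood method (legacy), gave an infinite prior degree of freedom and p-values down to 0. The newer method (legacy=FALSE) was then chosen, after p-values had been seen and after other dispersion settings had been tried. The older method is given as an alternative.

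A state with 3 counts or fewer in each library was at the floor. A fold against a state at 0 is a lower bound against this floor, and ratios at 1 to 3 counts carry exact 95% binomial intervals, for counting error only. With 2 libraries per state, an exact permutation test could not go below p = 0.333. On simulated data for Day4 against Undiff with 19538 genes, 199 of 200 changed genes were recovered, with 1 false call. The simulation gave every gene the common dispersion of 0.00134 and changed only genes well above the floor, by large folds. It therefore does not cover spread that differs between genes, or genes near the floor. In the libraries themselves 8521 of 19891 genes were DEGs, and the accuracy of these calls was not tested.

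Members and lists were chosen with earlier results of these data known. All members are accounted for. Libraries are given for members with a mean of at least 5, and of the further lncRNAs the 3 DEGs with the highest and the 3 with the lowest fitted log2 fold change are named, an order that is not one of measured size where a state is at 0, with those not called and Wt1os and Foxd2os. Of the partner list the DEGs are named, and Sfpq, Nono and Pum2 were added after their values were seen. Some genes are not reported here, and the nearest genes of Malat1 and Hotairm1 were left out. Positions and exon lengths come from GENCODE vM21 (GRCm38, which is mm10), matched by symbol. Promoters and microRNAs come from RefSeq. The alternatives were DESeq2 1.42.0 with the settings of the authors, its size factors or library totals in place of TMM, filterByExpr, a replicate block, no minimum count, each library left out, and the older method.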

Additional observations from a re-analysis of the deposited data

How the results depend on the processing

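Over 10 alternatives, all 229 log2 fold changes of members kept their direction and their side of the adjusted p-value of 0.05. The Platr genes had 11 DEGs lower in Day4 and 0 higher under every alternative, except that 12 were lower with no minimum count, where Platr9 was added and the other lncRNAs had 7 lower. Of the 21 members that were DEGs, 20 remained so under every alternative that gave them a value. Pantr1 was not a DEG without Day4 replicate 1 or without Day4 replicate 2, where its mean fell under the minimum count. This left 3 other lncRNAs higher, as did filterByExpr, which dropped Pantr1. DEGs over all genes ranged from 8114 with DESeq2 to 8549 with library totals, were 8518 with the older quasi-likelihood method, and were 9256 with no minimum count. With library totals the median log2 fold change of all genes was 0.101, against 0.032 with TMM. The partner list had 4 DEGs lower with DESeq2, with its size factors, with filterByExpr and without Day4 replicate 2. Adding the replicate number as a block gave 8515 DEGs and changed no call of a member. The replicate numbers name no shared culture, and the deviations of same-numbered libraries correlated at r = -0.0212 over 15584 genes, so that the block is given here only. In a fit without a library of a state, the lone library was assumed to vary like the other state. Genes at the floor moved both with the method and with single libraries. DESeq2 gave -7.83 for Platr26, -7.48 for Platr7, 5.10 for Rmst and 3.85 for Pantr1, where the fit of edgeR gave -10.36, -8.47, 7.78 and 6.45, none of which is a bound. Without Day4 replicate 2, edgeR gave -10.53 for Platr7 and, in place of -6.60, -9.50 for Platr8.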

Other observations

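RefSeq lists 2 further genes of the count files under older Platr names, which the choice by symbol did not take, and they were named after their values were seen. Lincenc1, named Platr18 before, is Lncenc1 of the further list. It had 13330 and 13930 normalized counts in Undiff and 99.24 and 63.72 in Day4. Its log2 fold change was -7.43 ± 0.10 (SE, n = 2 libraries per state). Its Undiff mean of 13630 was above that of every Platr gene described here, Platr10 included, and above that of Malat1. Kis2, named Platr24 before, had 21.88 and 15.55 in Undiff and 1.04 and 0 in Day4, a ratio of 42.8 with an exact 95% counting interval of 7.18 to 1740. Both were DEGs lower in Day4.

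The symbol 2900097C17Rik is listed in RefSeq as an older name of both Norad and Bscl2, and the position that GENCODE gives it is that of Norad.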
